A study of Mus musculus with 22 samples.

Results

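Genes of JAK-STAT5 signalling, chosen by name, were described in mouse CD4+ T cells: the feedback inhibitors Cish, Socs1, Socs2 and Socs3, the transcription factors Stat5a, Stat5b and Stat3, the kinases Pim1 and Pim2, and the cytokine Osm. These 10 genes were read from a table of 55011 genes, and all 10 passed the filter on low counts that left 15462 genes for testing. The FOXP3 group held CD4+ T cells from lymph nodes of 10-day-old scurfy mice, which lack working FOXP3, that carried a vector with human FOXP3. The WT Treg group held CD4+CD25+ CD45.1+ cells. The LNGFR group held scurfy CD4+ T cells with the empty vector, whose surface reporter LNGFR also served as the sort marker of the FOXP3 group. All recipients were scurfy C57BL/6 mice given cyclophosphamide at 50 mg/kg at 10 days of age, cells on day 14, and 1000 IU of human IL-2 per g, once daily over 5 days and weekly after that. On day 50, 1000 cells per library were sorted in 2 rounds from lymph nodes for Smart-seq.

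Interleukin-2 and other cytokines of the common gamma chain family signal through JAK1 and JAK3, which phosphorylate STAT5A and STAT5B. Phosphorylated STAT5 pairs up, enters the nucleus and binds palindromic DNA elements, and among its induced genes are inhibitors of the same pathway. Regulatory T cells (Treg) depend on IL-2 and STAT5 to maintain FOXP3, while STAT3 carries signals of the IL-6 family, to which oncostatin M belongs. IL-2 was given to all 3 groups, so no group shows these genes without it, and phosphorylation was not measured.

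The 22 libraries came from 11 codes, 2 libraries each, and the pair was summed as 1 replicate: 5 codes in FOXP3 (F1, F2, F5, N2 and N3), 3 in WT Treg (E2, G4 and L1) and 3 in LNGFR (G1, G2 and G3). Whether each code is 1 animal is not given, so p-values measure the spread between codes. Totals per code were 8344444 to 10376164 counts in FOXP3, 1154626 to 7088371 in WT Treg and 3109515 to 7881352 in LNGFR. Codes E2, G1 and N3 stood apart. The Gm10800 repeat family took 58.73% and 49.87% of the counts of the 2 libraries of WT Treg code E2 and 29.08% of the second library of LNGFR code G1, against 2.205% to 4.503% elsewhere. The summed CPM (counts per 1000000, scaled by TMM) of B cell markers was 5109 in FOXP3 code N3, against 137.3 to 586.4 in the other FOXP3 codes, and 1543 in G1. T cell markers summed to 2759 to 4475 CPM in FOXP3, 1722 to 4599 in WT Treg and 4000 to 5625 in LNGFR, and no marker list had a gene at 0 in a whole group. The mouse Foxp3 row averaged 228.4 CPM in FOXP3, 1305 in WT Treg and 86.13 in LNGFR. It sets WT Treg apart from LNGFR (adjusted p = 0.00191), a call lost without G2. It was also lower in FOXP3 than in WT Treg (log2 fold change −2.52 ± 0.405, adjusted p = 0.0192), a call lost without F1, F5, N2, L1 or G2. For FOXP3 versus LNGFR it did not pass (log2 fold change 1.40 ± 0.43, adjusted p = 0.21), but did under 3 of 21 alternative settings. The codes of these 2 groups did not overlap, as for 9.02% of all genes. Since the vector carries human FOXP3, the mouse Foxp3 row is no check of the FOXP3 label. All LNGFR codes begin with G and no FOXP3 code does, while WT Treg code G4 does as well. What the letters stand for is not given, so a set of that name and the vector cannot be told apart.

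None of the 10 genes passed the main test in any of the 3 comparisons (edgeR's quasi-likelihood test, Benjamini-Hochberg adjusted p under 0.05 over all genes tested). The same test called 0.543% of all genes for FOXP3 versus LNGFR, 1.3% for WT Treg versus LNGFR and 0.259% for FOXP3 versus WT Treg, so 0 of 10 is near the background. The genes that came closest were Socs1, Pim2, Stat5b and Osm. Socs1 was lower in FOXP3 than in WT Treg cells, Pim2 was lower in WT Treg than in LNGFR cells, and Stat5b lay lower and Osm higher in FOXP3 than in WT Treg cells. Cish, Socs2, Socs3, Stat3 and Pim1 showed differences within 0.33 on the log2 scale in every comparison. At an unadjusted p under 0.05 the test gave 0 of the 10 genes for FOXP3 versus LNGFR, where 10.3% of all genes passed; 2 for WT Treg versus LNGFR (Pim2 and Stat5b), where 14.8% passed; and 2 for FOXP3 versus WT Treg (Socs1 and Osm), where 16.5% passed. With bulk sorted cells, fewer cells with a transcript and less of it per cell cannot be told apart.

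**Figure D1:**
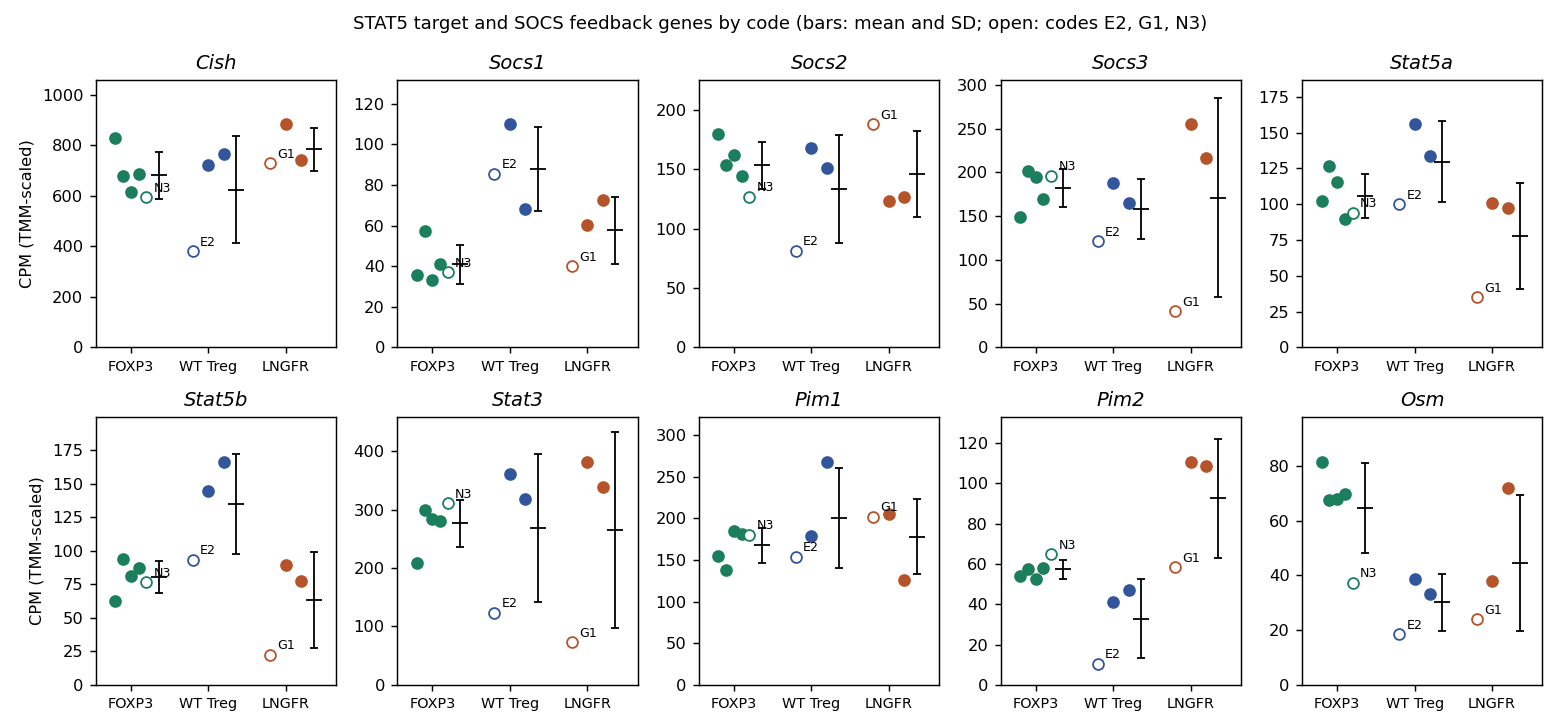
CPM of each of the 10 genes, 1 panel a gene, with 1 point per code, the mean and SD of each group as bars (FOXP3 n = 5, WT Treg n = 3, LNGFR n = 3), and codes E2, G1 and N3 as open points. Socs1 in FOXP3 lies under all WT Treg codes, Pim2 in WT Treg lies under all codes of both other groups, and LNGFR code G1 lies far under G2 and G3 for Socs3, Stat3, Stat5a and Stat5b.

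Cish (cytokine-inducible SH2 protein, ENSMUSG00000032578.7, chromosome 9, 107296026 to 107302784, plus strand, GRCm38) blocks STAT5 docking at cytokine receptors and is a textbook STAT5 target. Its promoter region is shown because it holds 2 copies, within 30 bases, of the palindrome TTCNNNGAA that STAT5 and related factors bind. RefSeq's promoter table for GRCm38.p6 gives a start from which the first match begins at base 1 and the second at base 12 (capitals mark the matches):
Cish, chr9:107296654-107296683, plus strand: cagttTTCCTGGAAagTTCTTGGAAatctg

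Cish was at 828.3, 677.5, 615.8, 686.0 and 593.9 CPM in FOXP3 codes F1, F2, F5, N2 and N3. It was at 381.7, 722.7 and 767.0 CPM in WT Treg codes E2, G4 and L1, and at 729.3, 882.4 and 741.9 CPM in LNGFR codes G1, G2 and G3. The 3 groups overlapped, and the lowest of the 11 values belonged to the weak code E2, which had 290 Cish counts. Log2 fold changes were −0.21 ± 0.30 (SE; adjusted p = 0.826) for FOXP3 versus LNGFR, −0.33 ± 0.33 (adjusted p = 0.678) for WT Treg versus LNGFR and 0.12 ± 0.30 (adjusted p = 0.872) for FOXP3 versus WT Treg. Per kb of exon, Cish was the most abundant of the 10 transcripts in each group, at 106.0 CPM per kb in FOXP3, 97.18 in WT Treg and 122.2 in LNGFR. Opposite-strand gene models cover 11.53% of its exons and the strand setting of the counting is not given, so part of its reads may belong to them.

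Socs1 (ENSMUSG00000038037.5, chromosome 16, 10782240 to 10785536, minus strand) encodes an inhibitor that binds JAK kinases directly and brakes IL-2 and interferon signals. It was at 35.7, 57.4, 33.4, 40.9 and 37.1 CPM in the FOXP3 codes, in the order F1, F2, F5, N2 and N3. In WT Treg codes E2, G4 and L1 it was at 85.6, 109.8 and 68.3 CPM, and in LNGFR codes G1, G2 and G3 at 40.0, 60.3 and 72.6 CPM. Every FOXP3 value lay under every WT Treg value, while LNGFR overlapped both. The log2 fold change for FOXP3 versus WT Treg was −1.10 ± 0.28 (p = 0.00142, adjusted p = 0.0866), which missed the threshold. It passed with DESeq2 (−1.16, adjusted p = 0.00172), with limma's voom and quality weights (−0.99, adjusted p = 0.012), with upper-quartile scaling (−1.25, adjusted p = 0.0375), in a fit of only the 2 groups (−1.14, adjusted p = 0.0499), with E2, G1 and N3 left out (−1.09, adjusted p = 0.0148) and without G1 alone (−1.09, adjusted p = 0.0494). Over 21 alternative settings it kept a negative sign, from −1.27 to −0.69, with adjusted p from 0.00172 to 0.297. It moved most without WT Treg code G4, the highest value, where it was −0.69. Against LNGFR, Socs1 differed by −0.50 ± 0.28 in FOXP3 (adjusted p = 0.59) and by 0.60 ± 0.31 in WT Treg (adjusted p = 0.383).

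Those shares of called genes depend strongly on the method, and the counts of members have to be read against them. Without codes E2, G1 and N3, 10.7% of genes were called for FOXP3 versus LNGFR, 7.66% for WT Treg versus LNGFR and 7.42% for FOXP3 versus WT Treg, and of the 10 genes 1, 2 and 3 were called in these comparisons in that order. With voom and quality weights the shares of all genes were 6.68%, 5.63% and 6.78%, and again 1, 2 and 3 of the 10 were called. DESeq2 called 3.06%, 5.98% and 7.31% of the genes to which it gave an adjusted p, and 0, 1 and 1 of the 10. Each of these calls is named with its gene. The 3 comparisons share codes, so a gene called in more than one is not independent support.

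Socs2 (ENSMUSG00000020027.18, chromosome 10, 95385362 to 95417180, minus strand), best known for limiting growth hormone signals and also induced through STAT5, varied little. The FOXP3 codes F1, F2, F5, N2 and N3 had 180.1, 153.5, 162.1, 144.5 and 127.1 CPM. WT Treg codes E2, G4 and L1 had 81.6, 167.7 and 150.9 CPM, and LNGFR codes G1, G2 and G3 had 188.0, 123.2 and 127.2 CPM. Only the weak code E2 lay apart, and the groups overlapped. Differences on the log2 scale were 0.07 ± 0.29 for FOXP3 versus LNGFR (adjusted p = 0.943), −0.12 ± 0.32 for WT Treg versus LNGFR (adjusted p = 0.906) and 0.19 ± 0.29 for FOXP3 versus WT Treg (adjusted p = 0.78). In each comparison the sign turned under some settings.

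Socs3 (ENSMUSG00000053113.3, chromosome 11, 117966079 to 117970047, minus strand) inhibits signals through gp130, the shared receptor chain of the IL-6 family, and is induced by STAT3 and STAT5. Its 250 bases upstream of the RefSeq start are shown because they hold TTCNNNGAA. Of the 8 genes with an entry in that table, no other held it there. The pattern TTCNNNGAA is the same on either strand, but the bases at N in this match are not. The match is in capitals and begins 154 bases before the start:
Socs3, chr11:117969367-117969616, minus strand: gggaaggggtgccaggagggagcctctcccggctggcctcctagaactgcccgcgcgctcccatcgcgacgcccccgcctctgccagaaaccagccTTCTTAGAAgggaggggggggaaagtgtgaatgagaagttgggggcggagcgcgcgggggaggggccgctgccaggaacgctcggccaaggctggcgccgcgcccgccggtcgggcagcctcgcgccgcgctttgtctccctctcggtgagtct
Of all 32851 promoter windows of the table, 7.02% hold the motif in the same 250 bases, and 8.3% hold it in the window that adds the first 50 bases of the transcript, where the Cish matches lie. Windows were found for Cish, Socs1, Socs3, Stat5a, Stat5b, Stat3, Pim1 and Pim2.

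Socs3 was at 149.4, 201.4, 194.2, 169.8 and 196.1 CPM in FOXP3 codes F1, F2, F5, N2 and N3. WT Treg codes E2, G4 and L1 had 121.1, 188.1 and 165.5 CPM. LNGFR codes G1, G2 and G3 had 41.4, 254.8 and 216.4 CPM, so the LNGFR group held the lowest value and the 2 highest of all 11 codes. The mean was 182.2 ± 22.01 CPM in FOXP3 (SD, n = 5), 158.2 ± 34.1 in WT Treg (SD, n = 3) and 170.8 ± 113.8 in LNGFR (SD, n = 3). The log2 fold change for FOXP3 versus LNGFR was 0.09 ± 0.44 (adjusted p = 0.954) with all codes, −0.37 without G1 and 0.54 without G2. With G1 kept it was also negative with upper-quartile scaling (−0.01) and with voom and quality weights (−0.25), so its direction was not settled. WT Treg versus LNGFR gave −0.11 ± 0.49 (adjusted p = 0.949), and FOXP3 versus WT Treg 0.20 ± 0.44 (adjusted p = 0.856).

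Stat5a and Stat5b encode the near-identical STAT5 proteins and lie side by side on chromosome 11, at 100859351 to 100885169 on the plus strand (ENSMUSG00000004043.14) and 100780731 to 100850724 on the minus strand (ENSMUSG00000020919.11). Of their possible 38-base reads, 10.7% of Stat5a's and 13.5% of Stat5b's also occur in another gene, mostly in each other, so their split is uncertain to that extent. Stat5b was at 62.2, 93.8, 81.4, 87.4 and 76.7 CPM in FOXP3 codes F1, F2, F5, N2 and N3. It was at 93.5, 144.4 and 166.6 CPM in WT Treg codes E2, G4 and L1, and at 22.5, 89.8 and 77.7 CPM in LNGFR codes G1, G2 and G3. All 3 WT Treg codes lay above all 3 LNGFR codes, by a narrow margin between E2 and G2, and E2 overlapped FOXP3 code F2. The log2 fold change was 1.09 ± 0.42 for WT Treg versus LNGFR (p = 0.0225, adjusted p = 0.265) and −0.76 ± 0.37 for FOXP3 versus WT Treg (p = 0.0598, adjusted p = 0.332). With E2, G1 and N3 left out both passed (0.90, adjusted p = 0.0106, and −0.94, adjusted p = 0.00328), as they did with voom and quality weights (0.95, adjusted p = 0.0322, and −0.92, adjusted p = 0.0151). FOXP3 versus LNGFR gave 0.34 ± 0.38 (adjusted p = 0.784), and −0.06 without G1.

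Stat5a had 102.5, 126.8, 115.2, 89.3 and 94.2 CPM in FOXP3 codes F1, F2, F5, N2 and N3. It had 100, 155.7 and 133.3 CPM in WT Treg codes E2, G4 and L1, and 35.0, 100.7 and 97.2 CPM in LNGFR codes G1, G2 and G3. The groups overlapped at about 100 CPM, with 2 WT Treg codes above and G1 below the others. Log2 fold changes were 0.44 ± 0.33 for FOXP3 versus LNGFR (adjusted p = 0.691), 0.74 ± 0.37 for WT Treg versus LNGFR (adjusted p = 0.369) and −0.30 ± 0.33 for FOXP3 versus WT Treg (adjusted p = 0.684). The ratio of Stat5b to Stat5a counts, looked at after the values were seen and not tested, was 0.769 ± 0.138 in FOXP3 (SD, n = 5), 1.04 ± 0.18 in WT Treg (SD, n = 3) and 0.778 ± 0.125 in LNGFR (SD, n = 3). Its ranges were 0.607 to 0.978 in FOXP3, 0.927 to 1.25 in WT Treg and 0.644 to 0.892 in LNGFR, so WT Treg lay above LNGFR and overlapped FOXP3.

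Stat3 (ENSMUSG00000004040.16, chromosome 11, 100885098 to 100939540, minus strand), the factor downstream of IL-6, IL-10 and IL-21, had group means that were nearly equal beside a wide spread. The FOXP3 codes F1, F2, F5, N2 and N3 had 208.3, 299.9, 283.1, 280.0 and 311.1 CPM. WT Treg codes E2, G4 and L1 had 123.7, 361.6 and 318.8 CPM, and LNGFR codes G1, G2 and G3 had 73.3, 382.0 and 339.5 CPM. In WT Treg and in LNGFR 1 code lay far below the other 2, and the other 2 lay above every FOXP3 code. The log2 fold change for FOXP3 versus LNGFR was 0.06 ± 0.47 (adjusted p = 0.975) with all codes and −0.44 without E2, G1 and N3. WT Treg versus LNGFR gave 0.02 ± 0.52 (adjusted p = 0.992). FOXP3 versus WT Treg gave 0.04 ± 0.47 (adjusted p = 0.979), and −0.35 without those 3 codes.

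LNGFR code G1 was low in Socs3, Stat3, Stat5a and Stat5b together, while its Cish and Pim1 lay within the range of the other codes and its Socs2 was the highest of the 11. The pair of G1 libraries differed far more than the pair of any other code, with a chi-square per degree of freedom of 85.99 against 2.964 to 11.66. The deeper first library, which did not carry the Gm10800 excess, had per 1000000 of its own counts 40.69 for Socs3, 65.54 for Stat3, 29.89 for Stat5a and 16.56 for Stat5b, beside 759.5 for Cish. The second had 30.07 for Socs3, 108.2 for Stat3, and 63.14 each for Stat5a and Stat5b, beside 180.4 for Cish. That second library was also low in Cish and in Socs2 (78.18, against 191.9 in the first), and its Socs3 and Stat3 rest on 10 and 36 counts, so the low level of these 4 genes beside a high Cish was seen in the first library only. The part of depth and of B cell transcripts in it was not tested.

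**Figure D2:**
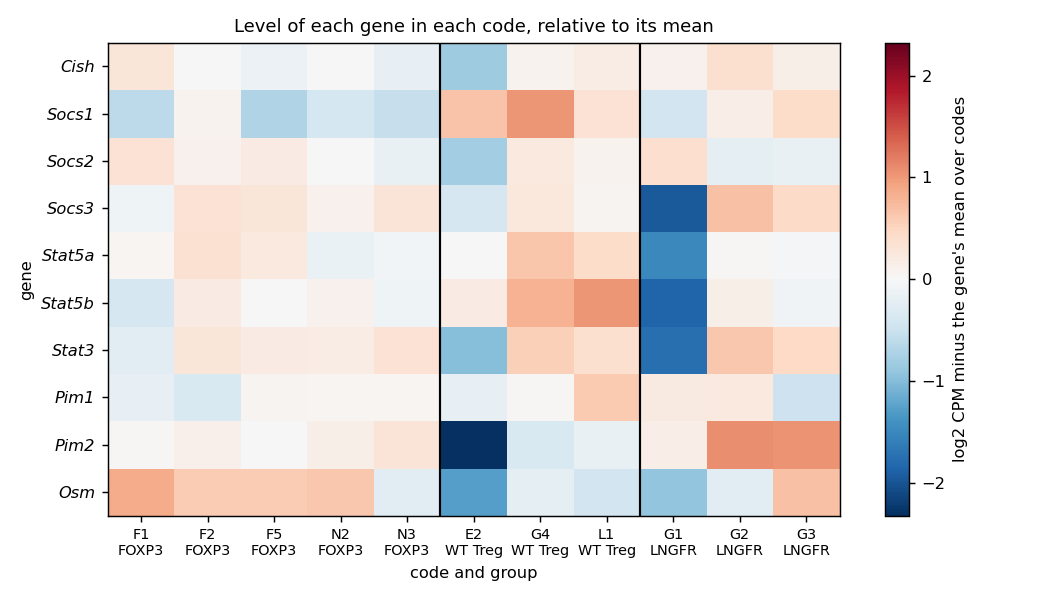
Heat map of each gene's log2 difference from its own mean over the 11 codes, with genes in rows and codes in columns grouped as FOXP3, WT Treg and LNGFR. Code G1 shows the low block of Socs3, Stat3, Stat5a and Stat5b, and code E2 is low in Stat3, Pim2, Osm, Cish and Socs2. Socs1 is high in all 3 WT Treg codes, but LNGFR code G3 lies above WT Treg code L1.

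Pim1 (ENSMUSG00000024014.8, chromosome 17, 29490753 to 29496112, plus strand) and Pim2 (ENSMUSG00000031155.16, chromosome X, 7878262 to 7883432, plus strand) encode serine/threonine kinases that promote survival and growth of lymphocytes and are induced through STAT5. Pim2 was at 53.9, 57.4, 52.4, 57.9 and 64.9 CPM in FOXP3 codes F1, F2, F5, N2 and N3. It was at 10.5, 41.1 and 46.9 CPM in WT Treg codes E2, G4 and L1, and at 58.5, 110.8 and 108.6 CPM in LNGFR codes G1, G2 and G3. WT Treg lay under both other groups without overlap; its lowest value rests on 8 counts in E2. The FOXP3 codes formed a tight group of 57.3 ± 4.8 CPM (SD, n = 5) whose highest value, from N3, passed the lowest LNGFR value, from G1. Pim2 gave log2 fold changes of −1.42 ± 0.41 for WT Treg versus LNGFR (p = 0.00393, adjusted p = 0.141), −0.70 ± 0.35 for FOXP3 versus LNGFR (p = 0.0669, adjusted p = 0.537) and 0.73 ± 0.37 for FOXP3 versus WT Treg (p = 0.07, adjusted p = 0.357).

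Under other settings Pim2 was the gene of the 10 most often called in the comparisons with LNGFR. For WT Treg versus LNGFR it passed with DESeq2 (−1.43, adjusted p = 0.00327), voom and quality weights (−1.30, adjusted p = 0.0017), upper-quartile scaling (−1.51, adjusted p = 0.0401), without the 3 weak libraries (−1.17, adjusted p = 0.0397) and with E2, G1 and N3 left out (−1.31, adjusted p = 0.000173). For FOXP3 versus LNGFR it passed without those codes (−0.99, adjusted p = 0.000322) and with voom and quality weights (−0.93, adjusted p = 0.00788). It was negative in both comparisons under all 21 settings. Plasma cells express Pim2 strongly. Their marker genes summed to 203.0 to 585.8 CPM in FOXP3, 114.5 to 315.0 in WT Treg and 475.2 to 665.3 in LNGFR. The part of plasma cells in the Pim2 differences was not tested. Within FOXP3, N3 had the highest sum of plasma cell markers (585.8 CPM), the highest sum of B cell markers (5109 CPM) and the highest Pim2 (64.9 CPM). F5, next after N3 in plasma cell markers (310.2 CPM), had the lowest FOXP3 Pim2 (52.4 CPM). LNGFR code G1, with 653.0 CPM of plasma cell markers and 1543 CPM of B cell markers, had the lowest LNGFR Pim2 (58.5 CPM). Xbp1, 1 of the plasma cell markers, averaged 239.5 CPM in FOXP3, 203.1 in WT Treg and 255.7 in LNGFR. It had the highest mean of these markers in FOXP3 and WT Treg, where Jchain averaged 65.4 and 22.1 CPM. In LNGFR the highest was Jchain, at 296.8 CPM. The marker sums in FOXP3 and WT Treg therefore rest largely on Xbp1.

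Pim1 was at 154.2, 137.4, 184.5, 180.8 and 180.2 CPM in FOXP3 codes F1, F2, F5, N2 and N3. It was at 154.0, 178.4 and 268.0 CPM in WT Treg codes E2, G4 and L1, and at 202.1, 205.7 and 126.5 CPM in LNGFR codes G1, G2 and G3. The groups overlapped, and the highest value, in L1, stood alone. Differences on the log2 scale were −0.09 ± 0.28 for FOXP3 versus LNGFR (adjusted p = 0.922), 0.17 ± 0.31 for WT Treg versus LNGFR (adjusted p = 0.845) and −0.26 ± 0.28 for FOXP3 versus WT Treg (adjusted p = 0.681). An opposite-strand gene model covers 14.52% of its exons. The count ratio of Pim2 to Pim1, not tested, was 0.346 ± 0.050 in FOXP3 (SD, n = 5), 0.158 ± 0.082 in WT Treg (SD, n = 3) and 0.562 ± 0.285 in LNGFR (SD, n = 3), with WT Treg at 0.0684 to 0.230 under the FOXP3 range of 0.284 to 0.417 and under the LNGFR range of 0.290 to 0.859.

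Osm (ENSMUSG00000058755.3, chromosome 11, 4236420 to 4241026, plus strand) encodes oncostatin M, a secreted cytokine of the IL-6 family and an early target of STAT5. It was at 81.5, 67.4, 67.9, 69.5 and 37.2 CPM in FOXP3 codes F1, F2, F5, N2 and N3. It was at 18.4, 38.8 and 33.2 CPM in WT Treg codes E2, G4 and L1, and at 23.9, 37.8 and 72.0 CPM in LNGFR codes G1, G2 and G3. Of 5 FOXP3 codes 4 lay above all WT Treg codes, and N3 lay just under G4. Osm gave log2 fold changes of 1.05 ± 0.38 for FOXP3 versus WT Treg (p = 0.0164, adjusted p = 0.178), 0.53 ± 0.37 for FOXP3 versus LNGFR (adjusted p = 0.674) and −0.53 ± 0.41 for WT Treg versus LNGFR (adjusted p = 0.571). FOXP3 versus WT Treg passed with voom and quality weights (0.97, adjusted p = 0.022) and with E2, G1 and N3 left out (0.99, adjusted p = 0.0195). Myeloid cells also make OSM; neutrophil markers summed to 0.980 to 2.696 CPM in FOXP3 and 1.455 to 30.27 CPM in WT Treg, where the highest sum was in E2. Macrophage and dendritic cell markers summed to 13.62 to 26.02 CPM in FOXP3 and 30.57 to 72.58 CPM in WT Treg; the part of these cells in the Osm difference was not tested.

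**Figure D3:**
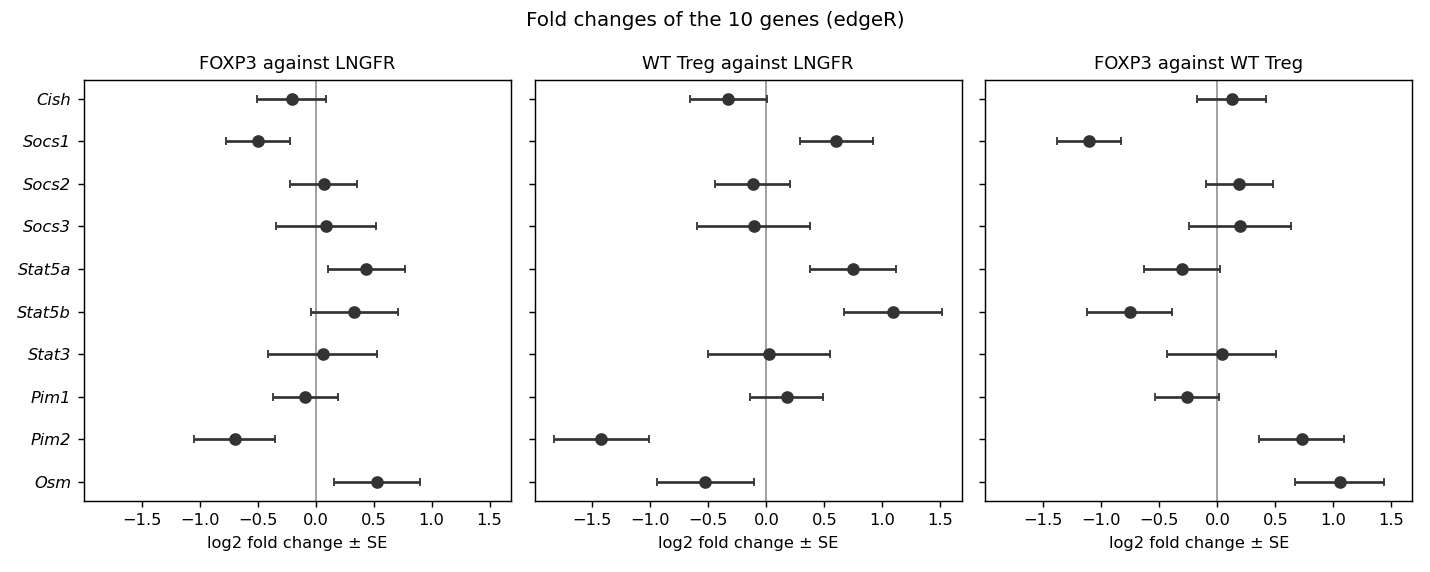
Log2 fold change and its SE in the main edgeR test for the 10 genes, 1 panel per comparison, with a line at 0. The estimates farthest from 0 are Pim2 at −1.42 for WT Treg versus LNGFR and Socs1 at −1.10 for FOXP3 versus WT Treg, and none passed the threshold.

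Ratios between members within a code do not depend on library scaling; they were chosen after the values were seen and carry no test. The ratio of Socs1 to Cish counts was 0.0431 to 0.0848 in FOXP3, 0.0891 to 0.224 in WT Treg and 0.0549 to 0.0979 in LNGFR. WT Treg codes lay above all FOXP3 codes but overlapped LNGFR, where G3 (0.0979) was above WT Treg code L1 (0.0891). The highest ratio, in the weak code E2, rests on 65 Socs1 and 290 Cish counts. The ratio of Osm to Cish counts was 0.0627 to 0.110 in FOXP3, 0.0432 to 0.0537 in WT Treg and 0.0327 to 0.0971 in LNGFR, and here FOXP3 lay above WT Treg in all codes, N3 included. The ratio of Stat3 to Socs3 counts stayed at 1.395 to 1.65 in FOXP3 and 1.499 to 1.772 in LNGFR, G1 included, and ran from 1.022 to 1.926 in WT Treg.

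**Figure D4:**
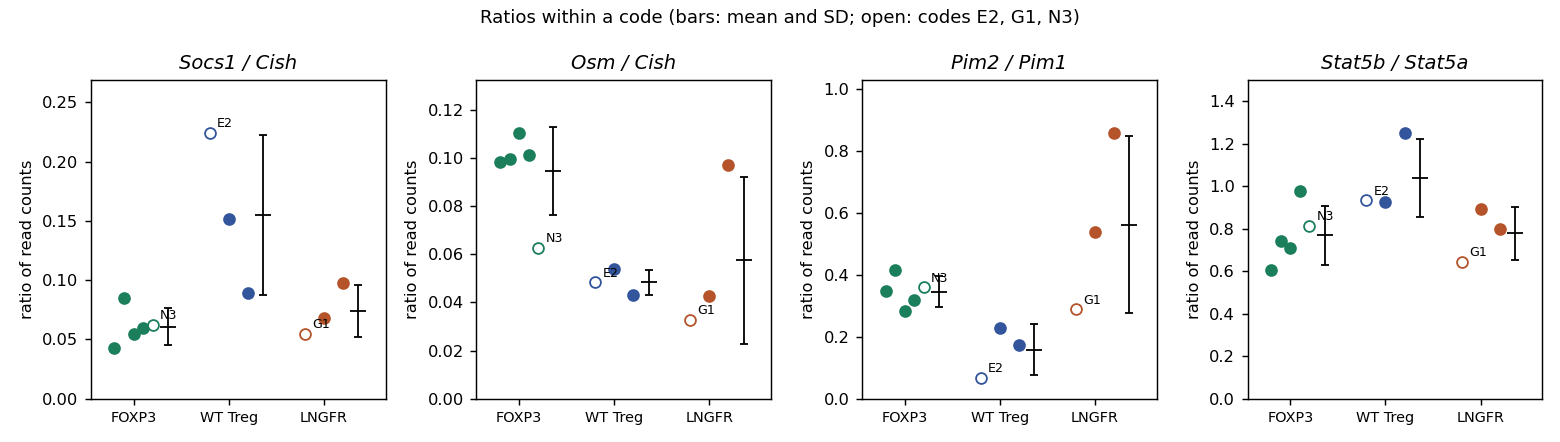
Count ratios of 4 pairs of the 10 genes by group (FOXP3, WT Treg, LNGFR), with 1 point per code, the mean and SD as bars, and codes E2, G1 and N3 as open points. WT Treg codes lie above all FOXP3 codes for Socs1 over Cish and below all of them for Osm over Cish and Pim2 over Pim1.

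Levels of different genes were set side by side as CPM per kb of exon. On that scale Cish, Socs3 and Pim1 were the 3 most abundant of the 10 in every group. The length was that of all annotated exons of a gene merged, such as 9531 bp in 13 blocks for Socs2. It can exceed the length of the transcripts present, by an amount that differs between genes, so the order is approximate. In FOXP3 the order was Cish at 106.0, Socs3 at 63.0, Pim1 at 49.8, Stat3 at 29.0, Osm at 28.5, Pim2 at 20.5, Socs2 at 16.1, Stat5a at 14.8, Stat5b at 14.5 and Socs1 at 14.1 CPM per kb. Between neighbours in that order the ranges over codes did not overlap for Cish and Socs3 or for Pim1 and Stat3, and overlapped for all the others. In WT Treg the order was Cish at 97.2, Pim1 at 59.5, Socs3 at 54.7, Socs1 at 30.2, Stat3 at 28.1, Stat5b at 24.3, Stat5a at 18.2, Socs2 at 14.0, Osm at 13.3 and Pim2 at 11.8 CPM per kb, and only Socs3 and Socs1 were neighbours with separate ranges. In LNGFR it was Cish at 122.2, Socs3 at 59.1, Pim1 at 53.0, Pim2 at 33.1, Stat3 at 27.8, Socs1 at 19.8, Osm at 19.6, Socs2 at 15.3, Stat5b at 11.4 and Stat5a at 10.9 CPM per kb, and only Cish and Socs3 were neighbours with separate ranges. Socs1 was thus last of 10 in FOXP3 and next after the 3 leading genes in WT Treg, and Pim2 was last in WT Treg and next after those 3 in LNGFR.

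As a group the 10 genes moved no more than the whole set of tested genes did. That set was not matched to the 10 in expression level, and the part of level in the comparison was not tested. Their median log2 fold change was 0.07 for FOXP3 versus LNGFR, −0.04 for WT Treg versus LNGFR and 0.08 for FOXP3 versus WT Treg, against −0.02, 0.08 and 0.01 over all genes tested. Their median absolute log2 fold change was 0.27, 0.43 and 0.28 in the same order of comparisons, against 0.39, 0.50 and 0.43 over all genes. Codes of the groups did not overlap for 0 of the 10 in FOXP3 versus LNGFR (9.02% of all genes), 2 in WT Treg versus LNGFR (16.6% of all genes) and 2 in FOXP3 versus WT Treg (12.4% of all genes), shares near the background. The median SE of the 10 was 0.34 for FOXP3 versus LNGFR, 0.39 for WT Treg versus LNGFR and 0.35 for FOXP3 versus WT Treg. Differences of several times the SE also missed the threshold, as Socs1 did at −1.10 with an SE of 0.28.

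**Figure D5:**
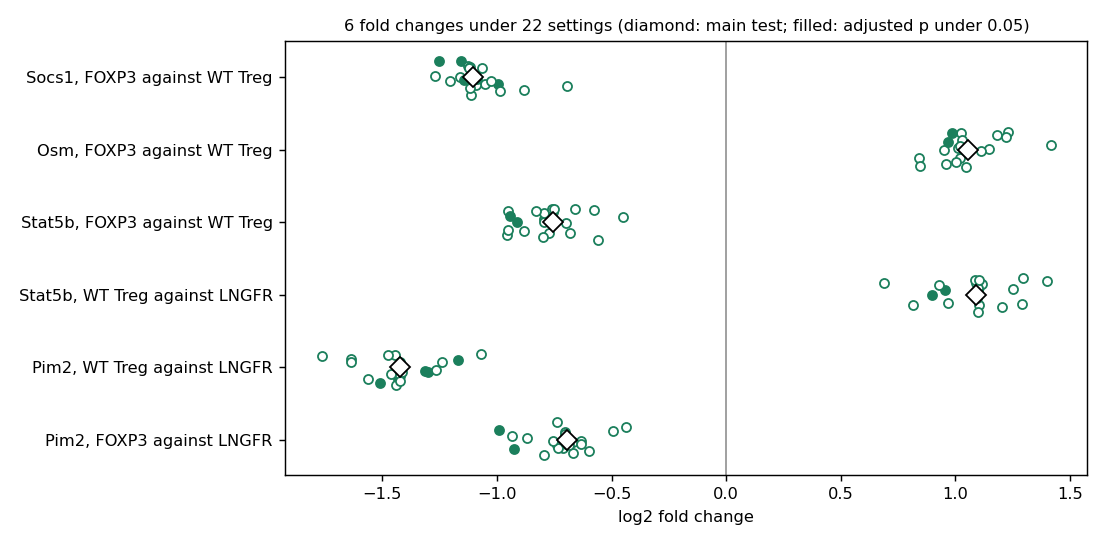
The 6 fold changes of member genes that passed under at least 1 setting, each under the main test (diamond) and 21 alternative settings (circles, filled where adjusted p was under 0.05), against log2 fold change on the horizontal axis. Each of the 6 keeps its sign in all settings, and most circles are open.

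Of the other genes of the pathway few were called. The main test called 0.543% of all genes for FOXP3 versus LNGFR, 1.3% for WT Treg versus LNGFR and 0.259% for FOXP3 versus WT Treg. Counts in the lists below stand beside these shares. The lists were chosen with earlier results of these data known, so a call in them is no independent support. Among 8 JAK and STAT genes beside the members none passed in any comparison. The janus kinase Jak2 had 44.6 ± 6.2 CPM in FOXP3 (SD, n = 5), 40.4 ± 4.1 in WT Treg (SD, n = 3) and 68.8 ± 20.8 in LNGFR (SD, n = 3). Its log2 fold change was −0.63 ± 0.24 for FOXP3 versus LNGFR (adjusted p = 0.373) and −0.78 ± 0.28 for WT Treg versus LNGFR (adjusted p = 0.241). Under other settings Jak2 passed in 2 of 21 for FOXP3 versus LNGFR and in 4 for WT Treg versus LNGFR, and both passed with voom and quality weights (−0.87, adjusted p = 0.00504, and −1.05, adjusted p = 0.00315). Of 5 relatives of the SOCS and PIM genes, Socs5, a SOCS protein linked to IL-4 and EGF receptor signals, rose in WT Treg versus LNGFR, with 22.6 ± 6.2 CPM in WT Treg and 7.10 ± 1.69 CPM in LNGFR (SD, n = 3 each; log2 fold change 1.70 ± 0.30, adjusted p = 0.0132). FOXP3 codes lay between, at 12.9 ± 0.97 CPM (SD, n = 5), and neither comparison with FOXP3 passed in the main test. FOXP3 versus LNGFR passed under 2 of 21 settings and FOXP3 versus WT Treg under 3. The Socs5 call was lost without G4, L1, G2 or G3, 1 at a time, and in a fit of only the 2 groups. Of 12 other brakes on cytokine signals none passed. Cbl, a ubiquitin ligase, had 153 ± 41 CPM in WT Treg and 78.0 ± 25.5 CPM in LNGFR (SD, n = 3 each; log2 fold change 0.98 ± 0.33, adjusted p = 0.207). It passed under 3 of 21 settings, DESeq2 among them (0.97, adjusted p = 0.00971).

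None of the 8 IL-2 and common gamma chain receptor genes passed. Il2ra, the high-affinity IL-2 receptor chain and itself a STAT5 target, averaged 611 ± 99 CPM in FOXP3 (SD, n = 5), 715 ± 334 in WT Treg and 276 ± 47 in LNGFR (SD, n = 3 each). Its log2 fold change was 1.15 ± 0.36 for FOXP3 versus LNGFR (adjusted p = 0.221) and 1.38 ± 0.40 for WT Treg versus LNGFR (adjusted p = 0.141). Both Il2ra differences passed under 5 of 21 alternative settings, among them DESeq2 (1.09, adjusted p = 0.00848, and 1.35, adjusted p = 0.00139) and the fit without E2 (1.16, adjusted p = 0.0356, and 1.73, adjusted p = 0.00822). Of 14 other genes reported as STAT5-induced, Bcl2, which blocks apoptosis, fell in WT Treg versus LNGFR, with 119 ± 47 CPM in WT Treg and 552 ± 148 CPM in LNGFR (SD, n = 3 each; log2 fold change −2.21 ± 0.41, adjusted p = 0.0185). FOXP3 codes had 199.7 ± 61.9 CPM of Bcl2 (SD, n = 5; log2 fold change against LNGFR −1.47 ± 0.34, adjusted p = 0.0839). That difference passed under 9 of 21 settings, with DESeq2 (−1.52, adjusted p = 0.000271), voom and quality weights (−1.72, adjusted p = 0.00109) and without N3 alone (−1.60, adjusted p = 0.0469) among them. The Bcl2 call for WT Treg versus LNGFR was lost without G4, L1, G2 or G3, 1 at a time, and in a fit of only the 2 groups.

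Receptors linked to STAT3 gave 1 call among 10 tested genes of 11, in FOXP3 versus WT Treg, where 0.259% of all genes were called. Il6st, which encodes gp130 and is also listed among 4 STAT5-repressed genes, fell in FOXP3 versus WT Treg, with 17.1 ± 2.1 CPM in FOXP3 (SD, n = 5) and 59.9 ± 6.3 CPM in WT Treg (SD, n = 3; log2 fold change −1.81 ± 0.29, adjusted p = 0.0192). It had 21.7 ± 10.5 CPM in LNGFR (SD, n = 3), and WT Treg versus LNGFR missed the threshold (1.46 ± 0.34, adjusted p = 0.0594). It passed under 8 of 21 settings, with DESeq2 (1.46, adjusted p = 0.000505), RLE scaling (1.47, adjusted p = 0.0355) and without G1 alone (1.11, adjusted p = 0.0374) among them. The Il6st call for FOXP3 versus WT Treg was lost without F1, F5, N2, L1, G2 or G3, 1 at a time. Osmr, the receptor chain specific to oncostatin M, was near 0 in most codes, at 0.0931 to 1.349 CPM in FOXP3, 1.132 to 53.97 in WT Treg and 0.1199 to 2.69 in LNGFR, so 1 WT Treg code held most of it. Its log2 fold change for WT Treg versus LNGFR was 4.35 with all codes and 0.48 without the weak code E2.

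Among 13 cytokine ligands 7 were tested. Il4 and Il13 fell in FOXP3 versus LNGFR, and Il4, Il10 and Il13 fell in WT Treg versus LNGFR. In FOXP3 versus WT Treg, Il4 rose. Il13 was at 0 to 0.539 CPM in FOXP3, 0 to 0.266 in WT Treg and 6.402 to 13.79 in LNGFR. It thus passed the filter on low counts only through LNGFR, where it was high. Its direction in the comparisons with LNGFR was largely set by that filter, so these calls are a description only. Il4, which signals through the common gamma chain to STAT6, averaged 34.0 ± 10.1 CPM in FOXP3 (SD, n = 5), 6.03 ± 3.94 in WT Treg and 113 ± 18 in LNGFR (SD, n = 3 each). Il10, a STAT3-activating cytokine, averaged 156.5 ± 60.2 CPM in FOXP3 (SD, n = 5), 29.7 ± 15.8 in WT Treg and 253.4 ± 2.5 in LNGFR (SD, n = 3 each), and its log2 fold change for WT Treg versus LNGFR was −3.02 ± 0.48 (adjusted p = 0.00775). Il2 was among the 6 with too few counts to test. Leaving out single codes ended the Il4 call for FOXP3 versus LNGFR for each code but E2 and N3, and the Il4 call for FOXP3 versus WT Treg without L1. The Il10 call was lost without G2, G4 or L1. The Il13 call for FOXP3 versus LNGFR was lost without G2 or G3, and that for WT Treg versus LNGFR without G1, G2, G3, G4 or L1. Of 12 immediate early genes, which respond to handling as well as to signals, Ier3 fell in FOXP3 and in WT Treg versus LNGFR and no other passed; their summed level was 2031 to 5921 CPM in FOXP3, 2941 to 6400 in WT Treg and 3142 to 10030 in LNGFR.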

How the data were processed

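Smart-seq libraries of 1000 sorted cells were amplified by 18 PCR cycles and read as 38 bp pairs, per the labels' protocols. Such reads carry no molecular identifiers, so depth and errors cover counting and the spread between codes only. The deposited values are raw read counts per gene, 1 column per library. The authors used STAR 2.7.3a, with featureCounts and Subread 2.0.0, on genome build mm10 (GRCm38), per the submitters' processing notes. For the annotation, the strand setting and multi-mapping reads, the choice is not given in the sources used here. Library totals were 332570 to 5453375 counts.

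Groups were taken from the titles, and the GEO genotype label is scurfy for every library, WT Treg included. The 2 libraries of a code were summed. Genes passing filterByExpr were fitted for all 3 groups together with edgeR 4.0.16 (R 4.3.3; TMM, robust quasi-likelihood fit), with Benjamini-Hochberg adjustment over 15462 genes and a threshold of 0.05. The SE is the absolute log2 fold change divided by the square root of F. Procedures were tested on simulated data. Positions are those of GENCODE M21; promoter sequences are RefSeq's. The 10 genes were named in every comparison, and of each other list its called genes or at most 2 by smallest p. The members and lists were chosen with earlier results of these data known. Alternatives were DESeq2 1.42.0, limma 3.58.1 (voom with quality weights), other scalings and filters, and fits with libraries or codes left out.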

Additional observations from a re-analysis of the deposited data

Results flagged for a closer look

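Values of Stat3 and Osm lay apart from their group by Dixon's test on log2 CPM, which flags about 1 in 20 groups by chance; 10 genes were looked at in the 5 FOXP3 codes. Stat3 in FOXP3 code F1 was 208.3 CPM, while the other 4 ran from 280.0 to 311.1 CPM, and its gap to the nearest was 0.738 of the group's range, above the critical value of 0.71. Osm in FOXP3 code N3 was 37.24 CPM, against 67.4 to 81.5 CPM in the other 4, with a gap of 0.758 of the range. On linear CPM neither passed (0.698 for Stat3 and 0.682 for Osm). N3 is the code with 5109 CPM of B cell markers and the lowest FOXP3 sum of T cell markers, 2759 CPM; their part in its Osm level was not tested.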

How the results depend on the processing

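No paired analysis was possible because no code occurs in more than 1 group, and what the letter and the digit of a code stand for is not given. Of 630 alternative values of the 30 member fold changes, 556 kept sign and side of the threshold, 19 newly passed it and 55 changed sign, none of them a called value; the cause was not tested. Members called went from 0 to 1 (FOXP3 versus LNGFR: voom; without E2, G1 and N3), to 1 or 2 (WT Treg versus LNGFR: 1 with upper quartile, DESeq2 or without the weak libraries, 2 with voom or without E2, G1 and N3) and to 1 or 3 (FOXP3 versus WT Treg: 1 with upper quartile, DESeq2 or only 2 groups, 3 with voom or without E2, G1 and N3); leaving out 1 code gave 0 to 1 in the last. Genes called for FOXP3 versus LNGFR were 84, but 329 without a filter, 410 with DESeq2, 1033 with voom, 184 with only 2 groups, 250 without the weak libraries, 1565 without E2, G1 and N3, and 14 (without G2) to 273 (without N3) leaving out 1 code. For WT Treg versus LNGFR they were 201, but 1000, 766, 870, 58, 318 and 1125 in that order, and 37 (without L1) to 299 (without E2). For FOXP3 versus WT Treg they were 40, but 3615, 1111, 1049, 135, 66 and 1090, and 63 with RLE, 76 with upper quartile, 77 with the first library of each code, and 4 (without L1) to 1230 (without G4). Log2 fold changes of members that changed sign follow. FOXP3 versus LNGFR: Socs2 −0.011 (RLE), −0.225 (upper quartile), −0.008 (DESeq2), −0.095 (without weak libraries) and −0.116 (first library); Socs3 −0.010 (upper quartile), −0.248 (voom) and −0.404 (without E2, G1 and N3); Stat5b −0.048 (without E2, G1 and N3); Stat3 −0.046 (upper quartile), −0.286 (voom), −0.009 (first library) and −0.435 (without E2, G1 and N3); Pim1 0.096 (no filter). WT Treg versus LNGFR: Socs2 0.236 (voom) and 0.349 (without E2, G1 and N3); Socs3 0.020 (without weak libraries); Stat3 −0.078 (no filter), −0.115 (voom) and −0.083 (without E2, G1 and N3). FOXP3 versus WT Treg: Cish −0.047 (voom), −0.136 (without weak libraries) and −0.094 (without E2, G1 and N3); Socs2 −0.058 (without weak libraries) and −0.000313 (without E2, G1 and N3); Stat3 −0.057 (upper quartile), −0.171 (voom), −0.304 (without weak libraries), −0.055 (first library) and −0.352 (without E2, G1 and N3). Leaving out 1 code gave, for FOXP3 versus LNGFR, Cish −0.278 to 0.051, Socs3 −0.370 to 0.542, Stat5b −0.059 to 0.740, Stat3 −0.383 to 0.471 and Pim1 −0.184 to 0.236; for WT Treg versus LNGFR, Socs2 −0.324 to 0.143, Socs3 −0.577 to 0.242, Stat3 −0.426 to 0.364, Pim1 −0.129 to 0.392 and Osm −0.835 to 0.034; for FOXP3 versus WT Treg, Cish −0.130 to 0.411, Socs2 −0.053 to 0.534, Stat5a −0.452 to 0.020, Stat3 −0.299 to 0.436 and Pim1 −0.415 to 0.159.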

Other observations

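The genes whose profile over the 11 codes was closest to a feedback inhibitor's were found by the root mean square difference of log2(CPM + 0.5), each profile centred on its own mean, among genes of at least 10 CPM on average. The 10 members were left out, and so were gene models, whose names hold Gm and a number or end in Rik. For Cish they were Il7r (0.113), Nob1 (0.134) and Yaf2 (0.139), against a median of 0.516 over all genes compared. Il7r, the IL-7 receptor chain, averaged 743.5 ± 130.2 CPM in FOXP3 (SD, n = 5), 613.1 ± 193.0 in WT Treg and 902.6 ± 182.5 in LNGFR (SD, n = 3 each). For Socs1 they were Tmco6 (0.174), Tnfrsf1a (0.260) and BC017158 (0.265), against a median of 0.751. For Socs2 they were Sdf4 (0.094), Txnl1 (0.105) and Naa10 (0.105), against 0.547, and for Socs3 Mtrr (0.101), Wdr43 (0.109) and Akap8 (0.123), against 0.672. These are descriptions over 11 codes that share the weak codes E2 and G1.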
